A study of Arabidopsis thaliana with 10 samples.

Results

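Whole Arabidopsis thaliana plants deprived of boron for 2 days were compared directly with whole plants deprived of calcium for 2 days. The comparison rests on 4 of the 10 ATH1 arrays of the study, the 2 arrays titled as boron deficiency at 2 days and the 2 titled as calcium deficiency at 2 days, and it covers all 22746 probe sets. Plants of the boron-deficient group were watered with a solution without boron and were 19 days old when taken. Plants of the calcium-deficient group were of the same age and received a solution without calcium, in which magnesium and potassium salts made up the nitrate that the calcium salt would have supplied. The 2 control arrays of the same day came from plants of 19 days on the complete solution. They add to the estimate of the spread and are given beside the values, but they do not enter the difference. Before treatment the perlite of all plants was watered with a solution holding 25 µM boron and 3 mM calcium. The labels name the replicates as biological and do not say how many plants an array holds.

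Boron and calcium both hold the pectin of the primary cell wall together. Borate esters join pairs of rhamnogalacturonan II side chains, and calcium ions bridge stretches of homogalacturonan from which the methyl groups have been removed. Calcium is in addition a second messenger, read by calmodulins, calmodulin-like proteins and calcium-dependent kinases, and it is held in the chloroplast, where photosynthesis and plastid gene expression run. The direct comparison shows which transcripts the losses affect unequally.

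The arrays were not equally close to each other, and this bears on all that follows. Boron replicates 1 and 2 had a Spearman correlation of 0.981 over all probe sets, and 375 probe sets (1.65%) differed at least 2-fold between them. Boron replicate 2 lay as close to the calcium arrays, with correlations of 0.981 and 0.98 and with 299 and 349 probe sets at least 2-fold apart. Boron replicate 1 stood further off, at correlations of 0.965 and 0.966 and with 1017 and 984 probe sets at least 2-fold apart. The calcium replicates were much closer, with a correlation of 0.993 and 8 probe sets at least 2-fold apart, against 0.969 and 478 for the control replicates. Values without each boron array are given below for the called probe sets as a whole, for the plastid list and for some single genes. Of the 59 called genes named below, leaving out either boron array moved the fold by over 1.5 times in 2, AT3G28510 and AT2G44240, and by up to log2 0.56 in the rest.

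Messenger RNA of 343 probe sets (1.51% of 22746) differed between the deficiencies at an adjusted p of 0.05 in limma's moderated test, and these are the probe sets said below to have risen or fallen. In boron deficiency 178 (0.783%) were higher and 165 (0.725%) were lower. The differences reached 2-fold in 227 of the 343 (0.998% of all), 99 higher (0.435%) and 128 lower (0.563%). At an unadjusted p of 0.05 there were 3773 (16.6%). A log2 difference is always boron minus calcium deficiency on the log2(signal + 16) scale, and folds are taken from it. Over all probe sets its median was 0.06, and 60.3% lay above 0.

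The 178 higher probe sets had a median log2 difference of 1.02 (0.71 to 2.32), and the 165 lower ones a median of -1.26 (-3.62 to -0.68). Both boron arrays were above both calcium arrays in all 178 (34.1% of all probe sets) and below them in all 165 (20.1% of all). The calls were made on these same 4 arrays, so this separation largely follows from the call and is no separate result. In 138 of the 178 and in 144 of the 165 the control mean was nearer to the boron mean than to the calcium mean. The share of all probe sets with that order was not counted, so these counts have no background beside them. Both calcium arrays were below the other 4 arrays of the day in 162 of the 178, as in 20.6% of all probe sets, and above them in 157 of the 165, as in 10.9% of all. Both boron arrays were above the other 4 in 79 of the 178 (10.5% of all) and below them in 60 of the 165 (7.01% of all). Set against the same control arrays, the median log2 difference of the 178 was 0.14 for boron and -0.87 for calcium deficiency, and that of the 165 was -0.12 and 1.16. At most of the called probe sets the calcium arrays thus stood apart from boron and control arrays alike. They also did so at most of all probe sets where the deficiencies did not overlap.

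All 343 differences kept their sign without boron replicate 1 and without boron replicate 2. This could not have come out otherwise, since both boron arrays lay beyond both calcium arrays at each of the 343. The medians of the 178 and the 165 were 0.93 and -1.13 without replicate 1, and 1.13 and -1.4 without replicate 2. Boron replicate 2 was nearer to the calcium mean than boron replicate 1 in 146 of the 178 and in 149 of the 165. The share over all probe sets was not counted here either. The number of calls moved far more than the sizes did. It was 10 without boron replicate 1, of which 9 were among the 343, and 747 without boron replicate 2. It was 0 without calcium replicate 1 and 0 without calcium replicate 2, where limma still gave 1918 and 1878 probe sets at an unadjusted p of 0.05. Without control replicate 1 it was 696 and without control replicate 2 it was 697.

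**Figure D1:**
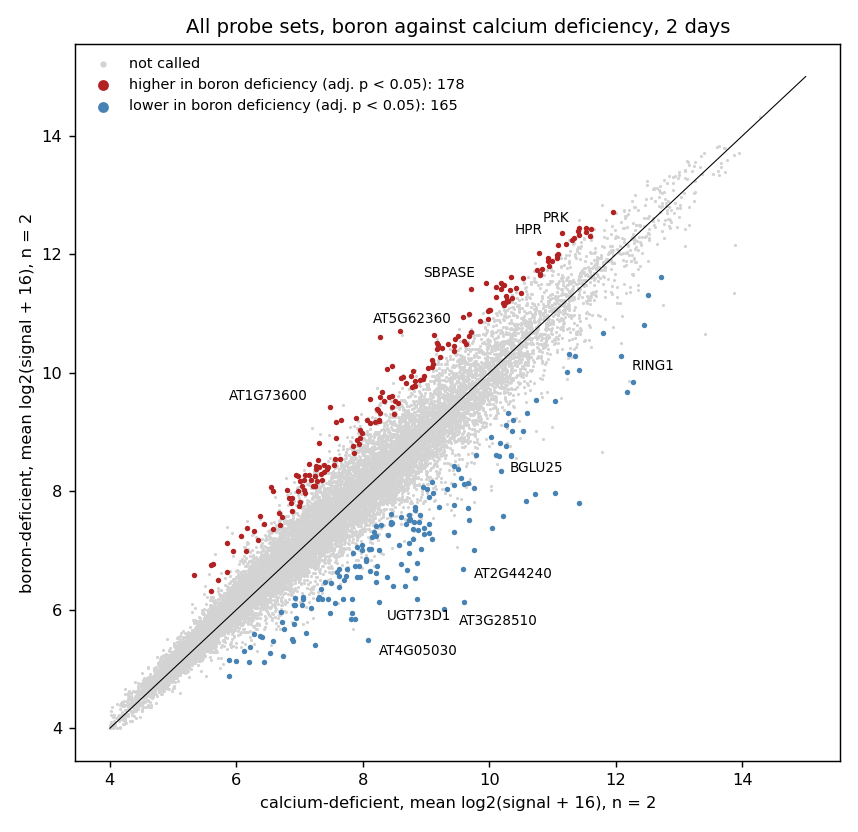
Mean log2(signal + 16) of the 2 boron-deficient arrays (vertical axis) against the 2 calcium-deficient arrays (horizontal axis), 1 point per probe set. The line marks equal values; 178 probe sets in red were higher and 165 in blue lower in boron deficiency at an adjusted p of 0.05, and grey points did not pass.

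Of the 343 probe sets 163 name a single gene (1.21% of the 13513 single-gene probe sets), 74 higher and 89 lower. Of these 35 have a gene symbol, and 128 carry a locus number alone, for which no function is given here.

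The widest gap among single-gene probe sets higher in boron deficiency was at AT5G62360. Its signal was 2133 and 1106 in boron-deficient plants, 251 and 343 in calcium-deficient plants and 2033 and 1026 in control plants. Boron deficiency left it in the range of the controls, and calcium deficiency was far below both. The log2 difference was 2.32 (SE 0.393, adjusted p = 0.0417), which is 5.01-fold.

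AT1G73600 followed, with 873 and 508 in boron-deficient, 184 and 144 in calcium-deficient and 94.5 and 63.3 in control plants. Here the order was another, with both deficiencies above the controls and boron deficiency highest, and the log2 difference was 1.93 (SE 0.28, adjusted p = 0.0373). AT4G19430, at 553 and 588 against 171 and 201 in calcium deficiency and 293 and 160 in controls, was likewise above all other arrays in boron deficiency (log2 difference 1.54). AT2G10940 had 3229 and 2268 in boron deficiency, 832 and 813 in calcium deficiency and 1913 and 1515 in controls (log2 difference 1.70). AT4G21870 had 1091 and 1090 against 328 and 341, with controls at 1461 and 873 (log2 difference 1.66). In both of these the calcium arrays were the lowest of the 6.

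The other 10 of the 15 largest differences among these single-gene probe sets lay between log2 1.27 and 1.35. They were AT2G42220, AT3G16370, AT5G45950, rpl14, AT3G50685, AT3G08980, AT1G18060, AT1G14345, AT1G32470 and SBPASE. In all 10 both calcium arrays were below the boron and the control arrays. The place of the controls varied: at AT1G32470 both were above the boron arrays, and at AT5G45950 and rpl14 both were below them and nearer to calcium deficiency.

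**Figure D2:**
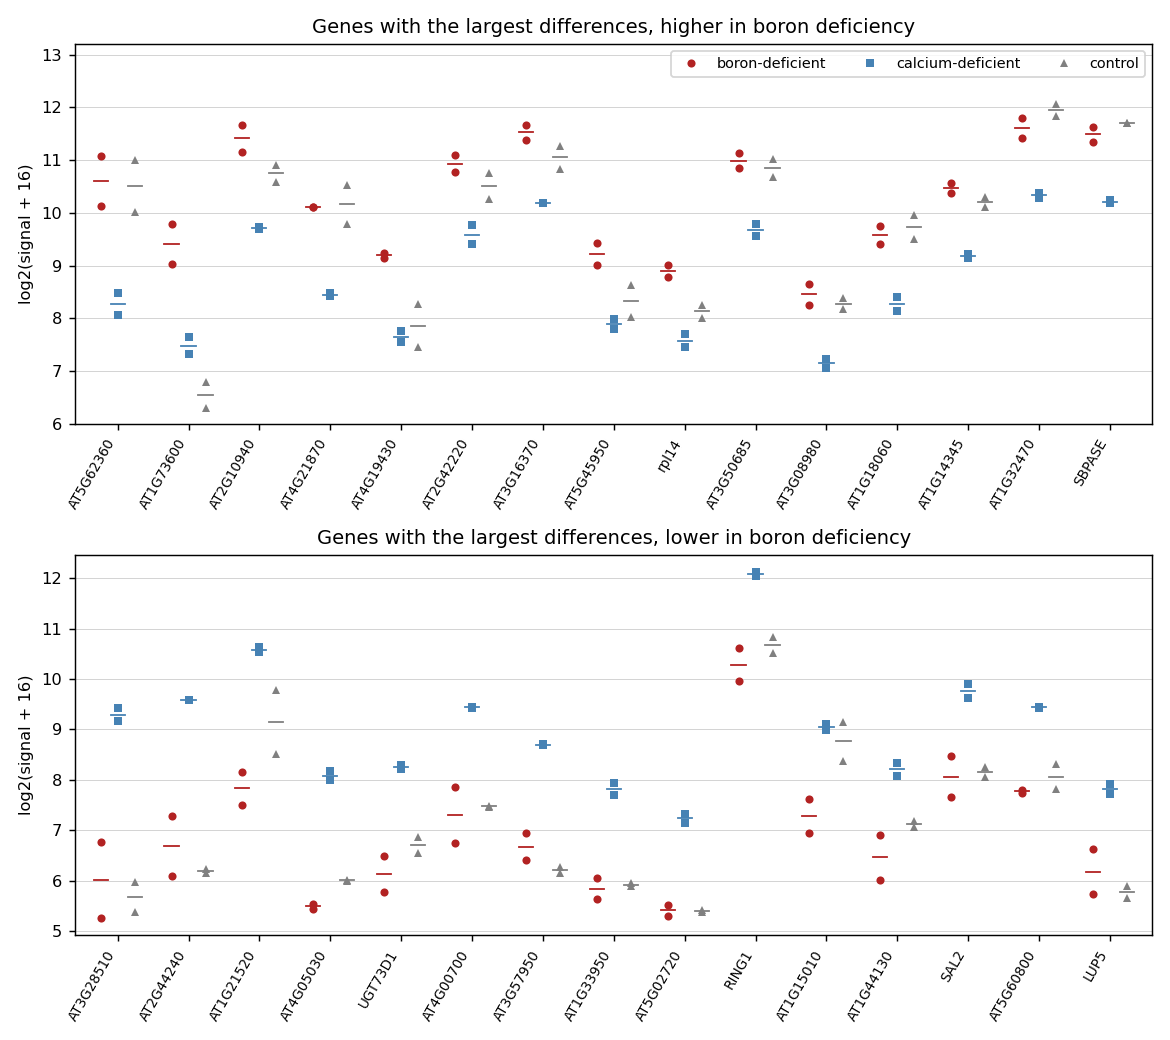
Log2(signal + 16) of each array of 2 days for the 15 genes with the largest called differences in each direction, among single-gene probe sets alone. Boron-deficient arrays are red circles, calcium-deficient arrays blue squares and control arrays grey triangles, with a short line at each mean of 2. Among the genes higher in boron deficiency the blue squares are the lowest points except at AT1G73600 and AT4G19430; among the genes lower in boron deficiency they are the highest points except at AT1G15010.

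Of the gene lists examined, that of plastid-encoded genes, which was also the longest, held the most genes higher in boron than in calcium deficiency. The plastid genome encodes core subunits of the photosystems, the cytochrome b6f complex, the ATP synthase and the NDH complex, as well as part of the ribosome and of the RNA polymerase that express them. Of 69 plastid-encoded genes measured 10 rose and 0 fell, against 0.783% and 0.725% of all probe sets. All 69 had a log2 difference above 0, with a median of 0.71 (0.09 to 1.39) against 0.06 over all probe sets, and both boron arrays were above both calcium arrays in 64 of them, as in 34.1% of all probe sets. The 69 were all above 0 under each of the 3 other scalings as well, with medians of 0.67, 0.67 and 0.66. The transcripts of a single genome are made together and are not independent of each other.

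The median log2(signal + 16) over the 69 genes was 10.62 and 10.33 on the boron arrays, 9.60 and 9.74 on the calcium arrays and 10.54 and 10.67 on the control arrays. The calcium arrays were the lowest, and both were below the other 4 arrays of the day in 63 of the 69 genes, against 20.6% of all probe sets. Against the same control arrays the median log2 difference was -0.10 for boron and -0.71 for calcium deficiency. The median difference between the deficiencies was 0.64 without boron replicate 1 and 0.77 without boron replicate 2, but the 10 calls fell to 0 without boron replicate 1, without calcium replicate 1 or without calcium replicate 2, and there were 21 without either control. In whole plants, fewer chloroplast-rich cells and less plastid RNA per cell cannot be told apart.

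Among the plastid genes the gap was widest, of those that passed, at rpl14, a protein of the large ribosomal subunit. Its signal was 502 and 424 in boron deficiency, 193 and 159 in calcium deficiency and 241 and 290 in controls, a log2 difference of 1.32 (SE 0.176, adjusted p = 0.0339). The boron arrays were above the controls and the calcium arrays below them. The small-subunit genes rps2 (994 and 857 against 446 and 478, controls 757 and 925) and rps4 (4844 and 5349 against 2678 and 2776, controls 5070 and 5059) also rose, by log2 0.97 and 0.90. The 15 ribosomal protein genes had a median of 0.73, and 3 of them rose, beside 0.783% of all probe sets. Of the 15, rpl16 had the largest difference, 1.39 with 1765 and 1271 against 444 and 713, but did not pass (adjusted p = 0.0513).

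Both rpoC1 and rpoC2, subunits of the plastid-encoded RNA polymerase, rose. The signal of rpoC2 was 296 and 259 in boron deficiency, 119 and 139 in calcium deficiency and 178 and 211 in controls (log2 difference 1.02), and that of rpoC1 was 2731 and 2444, 1367 and 1501, and 2293 and 2292 (0.84). The subunit gene rpoB, at 110 and 84.2 against 89.3 and 87.7, had overlapping groups and a log2 difference of 0.10 (95% confidence interval -0.32 to 0.53). Without boron replicate 1 the difference at rpoB was -0.06. The gene rpoA, at 812 and 517 against 360 and 403, had a log2 difference of 0.74 (0.19 to 1.29) and did not pass. Whether the 4 subunit genes differ from each other was not tested.

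Of the genes for photosynthetic complexes psbD, which encodes the D2 reaction centre protein, had 307 and 300 in boron deficiency, 134 and 171 in calcium deficiency and 377 and 424 in controls (log2 difference 0.93). The small photosystem II gene psbT had 446 and 391 against 214 and 214, with controls at 392 and 391 (0.91). The ATP synthase gene atpF had 1355 and 1492 against 759 and 802, with controls at 1530 and 1670 (0.85). In all 3 the boron arrays were near the controls or below them, and the calcium arrays were lowest. The photosystem I assembly factors ycf4 and ycf3 rose by log2 0.99 and 0.81, with 582 and 542 against 267 and 284 for ycf4 and 616 and 618 against 327 and 363 for ycf3.

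By complex, the median log2 difference was 0.71 for 5 photosystem I genes, 0.65 for 15 photosystem II genes, 0.51 for 6 cytochrome b6f genes, 0.54 for 6 ATP synthase genes and 0.70 for 10 NDH genes. It was 0.79 for 4 RNA polymerase genes and 0.80 for 8 other plastid genes. The medians of the complexes lay close together, within the range that single genes of a complex spanned. Against the shared controls the photosystem I genes had medians of -0.38 in boron and -1.25 in calcium deficiency, and the ribosomal protein genes 0.14 and -0.55.

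**Figure D3:**
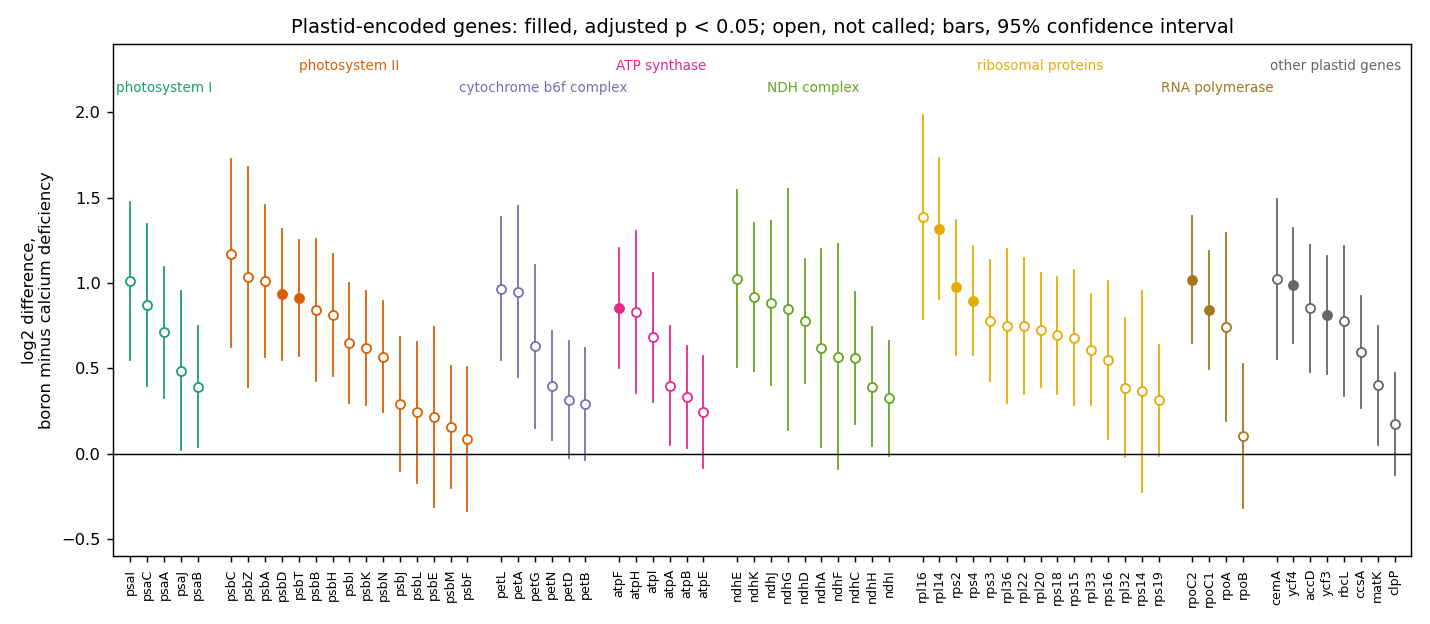
Log2 difference, boron minus calcium deficiency, of the 69 plastid-encoded genes by complex, with 95% confidence intervals from limma. All points are above 0, and the 10 filled points passed an adjusted p of 0.05.

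The nuclear genes of photosynthesis had differences of the same sign, with a smaller median. Of 12 measured 2 rose and 0 fell, beside 0.783% and 0.725% of all probe sets, and the median log2 difference was 0.46 (0.06 to 1.27). All 12 were above 0 as deposited, as 60.3% of all probe sets were, and after median centring, and 11 were above 0 after either quantile normalization. SBPASE, the sedoheptulose-bisphosphatase of the Calvin-Benson cycle, had 3150 and 2585 in boron deficiency, 1194 and 1148 in calcium deficiency and 3313 and 3332 in controls (log2 difference 1.27, SE 0.156, adjusted p = 0.0282). PRK, the phosphoribulokinase that makes the carbon dioxide acceptor of the same cycle, had 5371 and 5174, 2912 and 2932, and 5048 and 6027 (0.85, SE 0.147, adjusted p = 0.0448). In both genes the boron arrays were close to the controls and the calcium arrays well below. PSAN, a photosystem I subunit, had a difference of 1.06 and just missed the threshold.

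RCA, the Rubisco activase, had 10574 and 10961 against 8199 and 8124, with controls at 11199 and 12885, a log2 difference of 0.40 (95% confidence interval 0.09 to 0.71, adjusted p = 0.184). LHCB4.3, an antenna protein of photosystem II, had 824 and 863 against 589 and 616, with controls at 843 and 804 (0.47, adjusted p = 0.153). At RCA and LHCB4.3 the calcium arrays were the lowest of the 6, without a call.

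Of the called genes outside the lists, HPR and LrgB also rose. HPR, the hydroxypyruvate reductase of peroxisomes, had 5145 and 4060 in boron deficiency, 2183 and 2146 in calcium deficiency and 6845 and 7930 in controls (log2 difference 1.07, SE 0.167, adjusted p = 0.0396). LrgB, a plastid envelope protein that carries glycolate and glycerate, had 1172 and 912, 438 and 421, and 1319 and 1738 (1.24, SE 0.198, adjusted p = 0.0396). For HPR and LrgB the boron arrays were also below both controls, and the calcium arrays lower still.

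Nuclear factors that build the photosynthetic apparatus formed a list made up after values had been seen. Of its 17 genes 4 rose and 0 fell, beside 0.783% and 0.725% of all probe sets, with a median of 0.71 and 16 above 0 (60.3% of all). CaS, described below with the calcium genes and counted there too, is 1 of the 4. NdhN, a subunit of the NDH complex, had 871 and 600 against 320 and 291, with controls at 979 and 937 (log2 difference 1.20, SE 0.2, adjusted p = 0.0404). HCF101, an iron-sulfur cluster carrier needed for photosystem I, had 670 and 494 against 265 and 241, with controls at 516 and 512 (1.14). CRR42, needed for the NDH complex, had 354 and 282 against 158 and 156, with controls at 259 and 281 (0.94). Each of these 3 had its lowest values on the calcium arrays.

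Cpn60beta4, a subunit of the plastid chaperonin, rose too, with 210 and 145 in boron deficiency, 70.5 and 63.7 in calcium deficiency and 194 and 206 in controls (log2 difference 1.20, adjusted p = 0.0392). The 2 other chaperonin genes measured, Cpn60beta2 (0.71) and Cpn60beta3 (-0.12), did not pass. This list, too, was made up after values had been seen.

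Of the calcium-related genes measured, 2 separated the deficiencies, CaS and CML43. CaS, the calcium-sensing receptor of the thylakoid membrane, rose in boron relative to calcium deficiency. Its signal was 1472 and 1216 in boron-deficient plants, 583 and 537 in calcium-deficient plants and 1082 and 1090 in controls (log2 difference 1.23, SE 0.161, adjusted p = 0.0332, 2.35-fold). The boron arrays lay above and the calcium arrays below the controls. Of the 9 genes of the calcium transport list 1 rose and 0 fell, beside 0.783% and 0.725% of all probe sets, with a median of -0.33. The other 8 members, all glutamate receptor-like channels, did not pass. Of these the largest was GLR1.4, named after its values were seen, with 64.1 and 128 in boron deficiency, 299 and 248 in calcium deficiency and 81.2 and 49.9 in controls (-1.43, adjusted p = 0.0643).

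CML43, a calmodulin-like calcium sensor, fell in boron relative to calcium deficiency. It had 82.2 and 85.3 in boron-deficient, 163 and 193 in calcium-deficient and 84.7 and 93.1 in control plants (log2 difference -0.95, SE 0.14, adjusted p = 0.0373). The boron arrays lay near the controls, and calcium deficiency was 1.94-fold above boron. Of the 8 sensors 1 fell and 0 rose, beside 0.725% and 0.783% of all probe sets, with a median of -0.53. The other 7 had differences of -1.02 to 0.23, and the replicates of CML38 were far apart, at 1043 and 266 in boron deficiency.

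Among the single-gene probe sets lower in boron deficiency the widest gap was at AT3G28510. Over all called probe sets, with those not named here, the lowest log2 difference was -3.62. It had 22.3 and 93.5 in boron-deficient, 668 and 556 in calcium-deficient and 46.5 and 25.7 in control plants. The log2 difference was -3.27 (SE 0.443, adjusted p = 0.0339), 9.66-fold higher in calcium deficiency, and it was -2.51 without boron replicate 1 and -4.03 without boron replicate 2. AT2G44240 had 52.3 and 139 in boron deficiency, 751 and 755 in calcium deficiency and 54.9 and 59.6 in controls (-2.90, adjusted p = 0.0236), and was at -2.31 without boron replicate 1 and -3.49 without boron replicate 2. In both genes calcium deficiency alone stood out, and boron replicate 2 lay above replicate 1 and above the controls.

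AT4G05030 had the lowest adjusted p of all probe sets. Its signal was 27.6 and 30.1 in boron deficiency, 274 and 238 in calcium deficiency and 47.9 and 48.3 in controls (log2 difference -2.60, SE 0.131, adjusted p = 0.00212). The boron arrays were close to each other and below the controls. AT1G21520 had 166 and 268, 1572 and 1469, and 864 and 351 (-2.75, adjusted p = 0.0373), with the boron arrays again lowest. AT4G00700, AT3G57950, AT1G33950, AT5G02720, AT1G15010, AT1G44130 and AT5G60800 had differences of -2.13 to -1.67. The calcium arrays were the highest of the 6 in each of them except AT1G15010, where control replicate 2 was at 553 beside 489 and 538 in calcium deficiency.

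Of the genes with a symbol in this direction RING1, a RING-type ubiquitin ligase linked to cell death, had the highest signal. It had 975 and 1549 in boron-deficient, 4198 and 4424 in calcium-deficient and 1800 and 1450 in control plants (log2 difference -1.80, SE 0.234, adjusted p = 0.0332). The control values overlapped those of boron deficiency, and calcium deficiency was 3.47-fold above boron. SAL2, a relative of the phosphatase SAL1, had 185 and 338 against 775 and 939, with controls at 290 and 250 (-1.70, adjusted p = 0.0396). LUP5, of the triterpene cyclase family, had 37 and 82.9 against 196 and 225, with controls at 43.3 and 34.1 (-1.64, adjusted p = 0.0405; -1.19 without boron replicate 1 and -2.09 without boron replicate 2). JRG21, a jasmonate-regulated dioxygenase, had 84.7 and 180 against 374 and 449, with controls at 233 and 250 (-1.60, adjusted p = 0.049). In SAL2 the boron replicates lay either side of the controls, in LUP5 replicate 2 lay above them, and in JRG21 both boron arrays were lowest.

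Enzymes that attach sugars to small molecules or remove them were among the lower genes, in lists made up after values had been seen. Of 51 UDP-glucosyltransferases 3 fell and 0 rose, beside 0.725% and 0.783% of all probe sets, and the median of the family was 0.08. UGT73D1 had 38.4 and 74 in boron deficiency, 299 and 283 in calcium deficiency and 77.2 and 100 in controls (log2 difference -2.13, SE 0.24, adjusted p = 0.0232). UGT87A2 had 595 and 659 against 1560 and 1489, with controls at 1237 and 1409 (-1.26, SE 0.155, adjusted p = 0.0282). Here it was boron deficiency that stood below the controls, with calcium deficiency close to them. UGT76E12 was dim, at 16.4 and 21.7 against 48.3 and 47.7, with controls at 29.2 and 22.5 (-0.87, adjusted p = 0.0401).

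Of 22 beta-glucosidases 2 fell and 0 rose, beside 0.725% and 0.783% of all probe sets, with a median of -0.09. BGLU25 had 312 and 444 in boron deficiency, 1076 and 1162 in calcium deficiency and 298 and 276 in controls (log2 difference -1.55, SE 0.193, adjusted p = 0.0283). BGLU31 had 19.6 and 25.7 against 85.8 and 68.2, with controls at 19 and 17.9 (-1.26, SE 0.148, adjusted p = 0.0248). For BGLU25 and BGLU31 the boron arrays were near the controls. Of 23 cytochromes P450 1 rose and 0 fell, beside 0.783% and 0.725% of all probe sets. It was CYP71B34, with 369 and 302 against 164 and 176 and controls at 356 and 403 (0.91, adjusted p = 0.046). None of 16 SWEET sugar transporters passed (median 0.14).

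Of the remaining lower genes PRX52 and AMY1 belong to lists, and BRL1 and ATERDJ2B to none. PRX52, a class III peroxidase of lignin formation, had 43.6 and 71.3 in boron deficiency, 156 and 139 in calcium deficiency and 50.5 and 42.4 in controls (log2 difference -1.18, adjusted p = 0.0404). Of the 7 peroxidases it was the only one called, beside 0.725% of all probe sets called lower, and the median of the list was -0.29. AMY1, an alpha-amylase, had 79.5 and 94.8 against 191 and 209, with controls at 70.1 and 79.3 (-1.07, adjusted p = 0.0339). It was the only one of 6 sugar starvation genes called, again beside 0.725% of all probe sets called lower. BRL1, a brassinosteroid receptor, had 27.7 and 33 against 69.2 and 68, with controls at 29.6 and 32.8 (-0.87, adjusted p = 0.0373). ATERDJ2B, a co-chaperone of the endoplasmic reticulum, had 150 and 160 against 293 and 267, with controls at 147 and 161 (-0.79, adjusted p = 0.046). In these 4 genes the boron arrays were close to the controls, and calcium deficiency was above both.

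Among cytoskeletal genes TUB5, a beta-tubulin, rose. It had 1332 and 1112 in boron-deficient, 596 and 566 in calcium-deficient and 835 and 916 in control plants (log2 difference 1.05, SE 0.161, adjusted p = 0.0395). Boron deficiency was above and calcium deficiency below the controls. Of the 11 genes 1 rose and 0 fell, beside 0.783% and 0.725% of all probe sets, and the median was 0.55. Tubulin genes are close copies of each other, so a probe set may take up signal from more than the gene it names.

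The 5 genes of leucine and valine breakdown named here did not separate the deficiencies. Mitochondria use this pathway to feed electrons from branched-chain amino acids into respiration when sugar is short. IVD, the isovaleryl-CoA dehydrogenase, had 386 and 547 in boron deficiency, 470 and 653 in calcium deficiency and 1739 and 2775 in controls. Both deficiencies were far below the controls and overlapped each other, with a log2 difference of -0.26 (95% confidence interval -0.92 to 0.40, adjusted p = 0.726). MCCA and MCCB, the subunits of methylcrotonyl-CoA carboxylase, had differences of 0.21 (-0.56 to 0.98) and 0.08 (-0.41 to 0.56). MCCA had 554 and 484 against 391 and 507, with controls at 1553 and 3294, and MCCB had 489 and 523 against 449 and 510, with controls at 1130 and 1666. ETFQO, which passes the electrons to ubiquinone, had 237 and 245 against 184 and 213, with controls at 563 and 1080 (0.27, interval -0.39 to 0.92). ALDH6B2, of the valine branch, had 1029 and 988 against 802 and 1041, with controls at 1690 and 2936 (0.14, interval -0.48 to 0.76).

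Over all 9 genes of the breakdown list 0 passed in either direction, 4 had differences above 0 and 5 below, and the median was -0.06. Against the same controls the medians were -1.13 for boron and -1.27 for calcium deficiency. Taken over the 5 genes, the confidence intervals reached from -0.92 to 0.98. MGL, the methionine gamma-lyase that supplies isoleucine, had 143 and 228 against 211 and 368, with controls at 1049 and 1631 (-0.58, interval -1.36 to 0.19). ETFALPHA (-0.24) and ETFBETA (-0.17), which carry the electrons to ETFQO, were not called, and ETFBETA was at 0.02 without boron replicate 2.

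Methionine-derived glucosinolates are sulfur defence compounds of the cabbage family, and BCAT4 is the aminotransferase at the start of their chain elongation. BCAT4 had 1796 and 1887 in boron-deficient, 1131 and 823 in calcium-deficient and 547 and 564 in control plants. Both deficiencies were above the controls and boron above calcium, with a log2 difference of 0.92 (interval 0.49 to 1.35) that missed the threshold (adjusted p = 0.0584). AOP1, a side chain dioxygenase homologue, had 105 and 96.3 against 69.4 and 57.1 (0.56, adjusted p = 0.107). Of 5 genes 0 passed, with a median of 0.56 and 4 above 0. Of 5 genes of branched-chain amino acid synthesis 0 passed (median 0.20).

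The lists of wall genes gave no call between the deficiencies. Of 29 expansin and xyloglucan endotransglucosylase genes, which loosen the wall, 0 passed and the median was 0.10. EXPA8 had 284 and 219 in boron deficiency, 126 and 132 in calcium deficiency and 116 and 167 in controls (log2 difference 0.87, adjusted p = 0.0795). EXPA4 had 267 and 344 against 283 and 203, with controls at 104 and 101 (0.32, interval -0.14 to 0.78), and XTH19 had 135 and 368 against 296 and 241, with controls at 73 and 52.4 (-0.23, interval -1.14 to 0.68). For EXPA4 and XTH19 both deficiencies lay above the controls and overlapped each other. The sign of XTH19 rested on boron replicate 1, and it was 0.44 without that array.

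Of 8 genes of pectin and its modification 0 passed, and the median was -0.02. PMEPCRF, a pectin methylesterase, had 603 and 990 against 1425 and 1193, with controls at 599 and 497 (log2 difference -0.74, adjusted p = 0.189). Of 35 genes for cellulose and wall glycoproteins 0 passed, with a median of 0.10. TBL45, of the family that acetylates wall polysaccharides, had the lowest p of these, with 506 and 322 against 176 and 206 and controls at 311 and 277 (1.02, adjusted p = 0.0711).

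**Figure D4:**
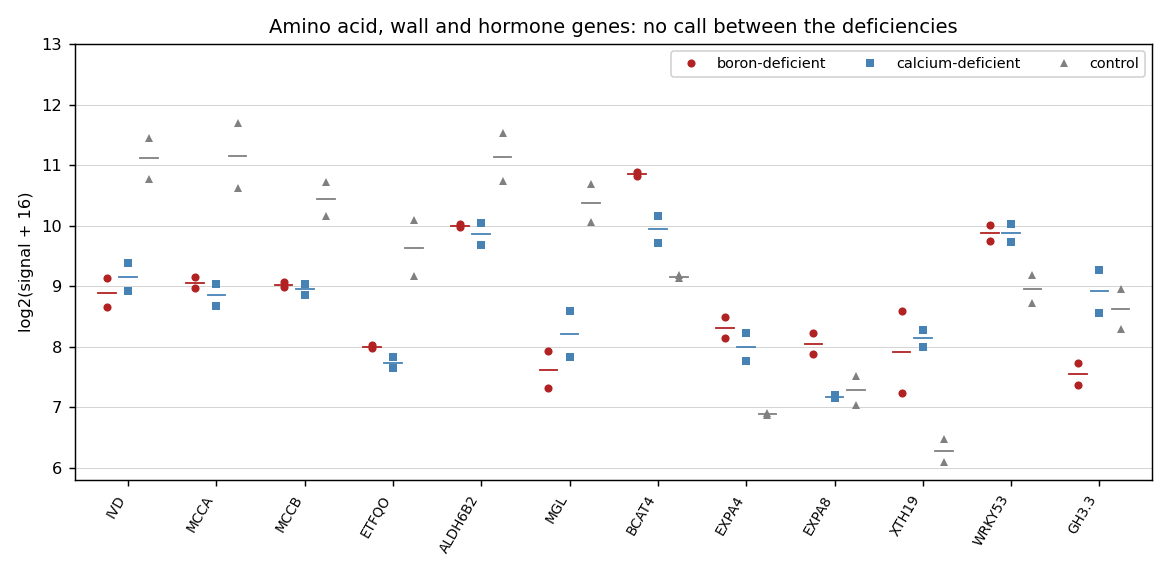
Log2(signal + 16) of each array of 2 days for 12 genes of amino acid metabolism, the wall, senescence and auxin that did not pass between the deficiencies: boron-deficient (red circles), calcium-deficient (blue squares) and control (grey triangles), with a line at each mean of 2. For the genes from IVD to MGL the controls are above both deficiencies, and for EXPA4, XTH19 and WRKY53 below both.

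Defence and senescence genes were mostly below 0 without a call. All 3 salicylate and immune genes were below 0 (median -0.86). CHI, a chitinase, had 495 and 1669 in boron deficiency, 4476 and 4922 in calcium deficiency and 1330 and 895 in controls, a log2 difference of -2.34 that did not pass (adjusted p = 0.0644). Its boron replicates were far apart, and the difference was -1.48 without boron replicate 1 and -3.20 without boron replicate 2. SAG101, a partner of EDS1 in immune signalling, had 201 and 226 against 458 and 349, with controls at 224 and 240 (-0.86, adjusted p = 0.0601). Of 15 senescence and autophagy genes 14 were below 0, beside 9025 of all 22746 probe sets, with a median of -0.36. ATG8D, a ubiquitin-like protein of autophagosomes, had 505 and 625 against 956 and 882, with controls at 588 and 538 (-0.69, adjusted p = 0.0875). WRKY53, a senescence regulator, had 1012 and 844 against 1024 and 830, with controls at 407 and 569 (0.003, interval -0.49 to 0.50). Boron and calcium deficiency were level at WRKY53 and above the controls.

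The hormone lists gave values in both directions and no call; JRG21 and BRL1, described above, were not among their members. GH3.3, which conjugates auxin to amino acids, had 149 and 196 in boron-deficient, 361 and 603 in calcium-deficient and 299 and 483 in control plants (log2 difference -1.37, adjusted p = 0.0735), with boron deficiency lowest. The median of 15 auxin genes was 0.06. ORA47, a regulator of jasmonate synthesis, had 349 and 273 against 142 and 128, with controls at 138 and 219 (1.11, adjusted p = 0.0614), while THI2.1, a jasmonate-induced thionin, had 42.5 and 88.4 against 118 and 149 (-0.93, adjusted p = 0.161). The median of 10 jasmonate genes was -0.09, that of 12 abscisic acid, cold and dehydration genes 0.03, that of 3 ethylene genes 0.01 and that of 4 gibberellin and brassinosteroid genes -0.39.

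Stress lists behaved likewise. TAPX, the thylakoid ascorbate peroxidase, had 872 and 487 against 253 and 299, with controls at 730 and 849 (log2 difference 1.20, adjusted p = 0.0748), and NDB2, an alternative NADH dehydrogenase of mitochondria, had 123 and 202 against 315 and 270 (-0.82, adjusted p = 0.121). Of 11 oxidative stress genes 0 passed (median 0.05), as did 0 of 14 glutathione transferases (-0.09) and 0 of 7 WRKY factors (-0.08). Of 9 heat shock proteins and co-chaperones 0 passed (-0.08, range -1.06 to 1.01), with 6 below 0 and 3 above. Their lowest p were at Hsp70-2 (-0.96, adjusted p = 0.115) and ATERDJ3B (-1.06, adjusted p = 0.129), both highest on the calcium arrays. Of 5 iron genes 0 passed (0.16). AT3G13610, the coumarin synthesis gene also called F6'H1, had 181 and 426 in boron deficiency, 831 and 785 in calcium deficiency and 222 and 299 in controls (-1.48, adjusted p = 0.0838). No member passed among 11 nitrate genes (0.05), 11 phenylpropanoid genes (0.11) and 14 cell division genes (0.19). The medians of the nitrate, oxidative stress, ethylene and abscisic acid lists turned sign under at least 1 other scaling.

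**Figure D5:**
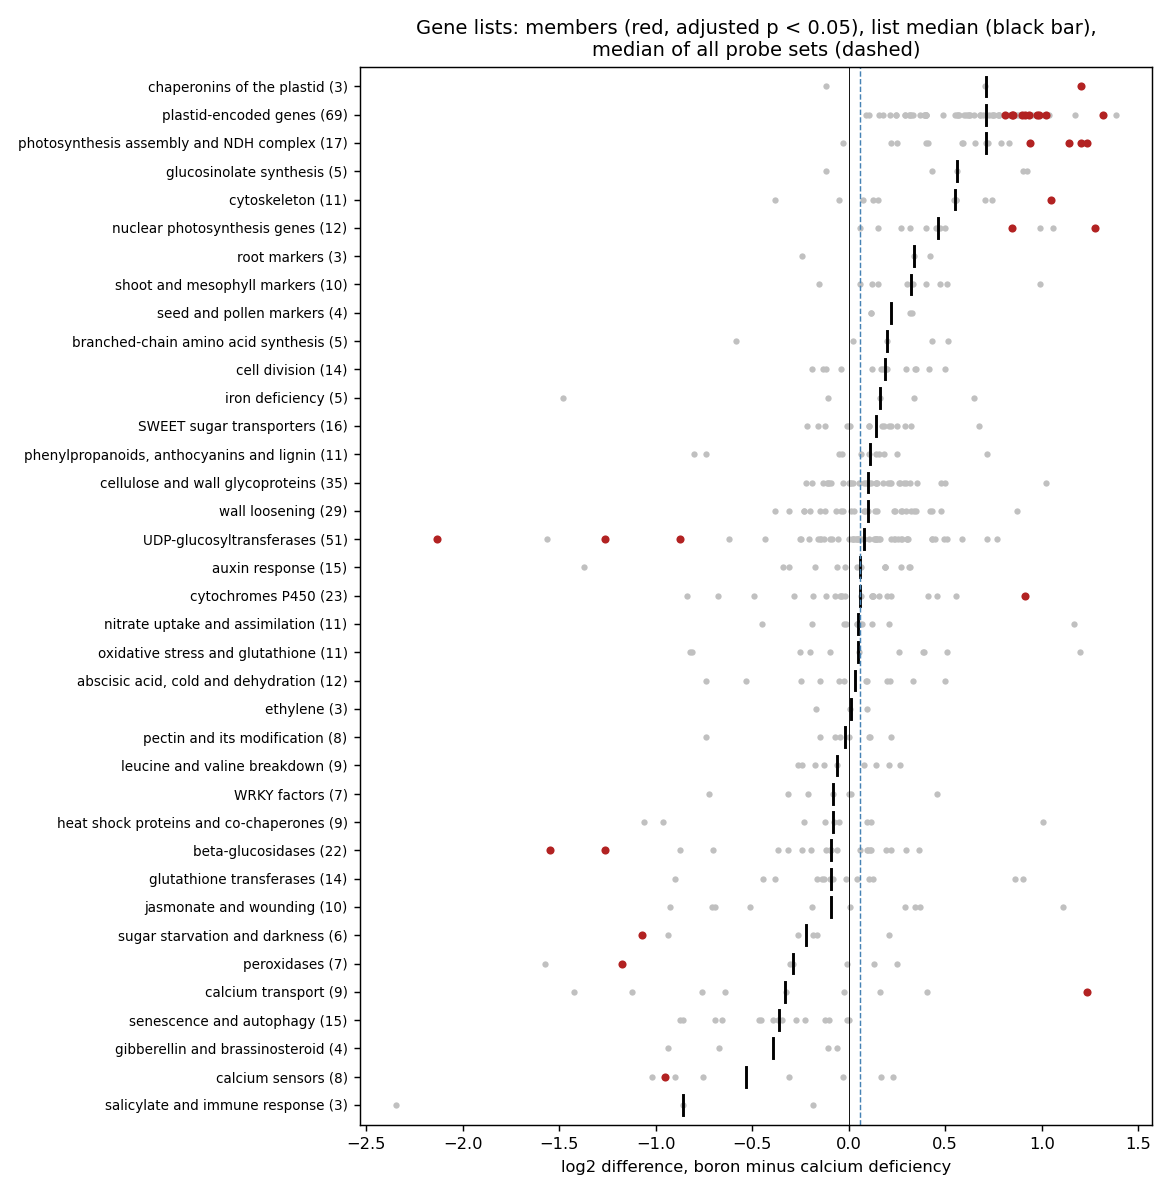
Log2 difference, boron minus calcium deficiency, of the genes in each list (number of genes in brackets), with the list median as a black bar and the median of all probe sets, 0.06, as a dashed line; red points passed an adjusted p of 0.05. The plastid chaperonin, plastid-encoded and photosynthesis assembly lists have the highest medians, 0.71 each, and the salicylate and immune list has the lowest, -0.86. The chaperonin and assembly lists were made up after values had been seen, so their rank is no separate result.

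The root marker PYK10 and shoot markers such as RCA had clear signal, as the label of whole plants requires. PYK10, a beta-glucosidase of roots, had 1771 and 2304 in boron deficiency, 2711 and 2107 in calcium deficiency and 1050 and 1430 in controls. The root hair expansins EXPA7 and EXPA18 were dimmer, and both were highest on boron replicate 2, at 105 and 154. Their lowest values were 58.5 and 55.5, and all but the 154 were below the array medians. Of 3 root markers 0 passed (range -0.24 to 0.42). Of 10 shoot markers 0 passed (median 0.32, range -0.15 to 0.99), and 9 were above 0, beside 60.3% of all probe sets. Both boron arrays were above both calcium arrays in 7 of the 10 (34.1% of all probe sets). PRK, called higher above, is a shoot marker too, but was counted with the nuclear photosynthesis genes. The 4 seed and pollen markers were at 15.4 to 105 on all 6 arrays, below the array medians of 114.9 to 121.2. The part of root and shoot shares in the differences of the photosynthesis genes was not tested.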

How the data were processed

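Biotin-labelled RNA from whole plants was hybridised to ATH1 arrays, per the labels. The authors deposited linear signal intensities per probe set. The submitters' processing notes name GCOS 1.4, and no scaling target is stated in the sources used here. Median intensities were 114.9 to 121.2 at 2 days and 231.6 to 243.4 at 4 days, and the 6 arrays of 2 days alone were fitted. The precision is limited by the number of arrays, 2 in each group. The protocol and the design text disagree on the start of treatment, and the age at sampling was used.

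Deposited intensities were taken as log2(signal + 16), without further scaling or filter. limma 3.58.1 in R 4.3.3 fitted a mean per group with an intensity trend (3 residual degrees of freedom, median prior 4.5), and the contrast was boron minus calcium deficiency. p-values were two-sided, with Benjamini-Hochberg adjustment over 22746 probe sets at 0.05. The fit was tested on simulated data.

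Names came from the platform annotation: 13513 probe sets name a single gene, of which 13436 matched a RefSeq locus of TAIR10.1 and 77 did not. Another 503 name several genes and 8730 are unnamed here; both kinds were tested and are not named. Members and lists were chosen with earlier results of these data known. Of 40 lists 31 had at least 3 measured genes, each with its brightest probe set; 6 lists were added after values were seen. A total of 31 members whose symbol meant another gene were removed. The lists for boron transport, potassium and magnesium transport, sulfate, phosphate, ERF and DREB factors, zinc finger and MYB factors, water channels, ribosomal proteins of the cytosol and the circadian clock had fewer than 3.

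Named genes are, per direction, the 15 with the largest called difference whose boron arrays both lie beyond both calcium arrays; up to 4 called members of each list, or the 2 with the lowest p where none was called; and IVD, MCCA, MCCB, ETFQO, ALDH6B2, MGL, BCAT4, EXPA4, XTH19, WRKY53 and GH3.3. Called genes with a symbol, and the genes of the marker, plastid, calcium and chaperonin lists beyond the rule, were named after their values were seen. Alternatives changed the scaling, pseudocount, filter, arrays fitted, weights, trend and replicate block, and left out each array. Promoter motifs were not run, since no sequence was at hand. Python 3.11.15 with matplotlib 3.10.9 drew the figures.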

Additional observations from a re-analysis of the deposited data

How the results depend on the processing

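The 343 calls (178 higher, 165 lower, 227 of them at least 2-fold) became 312 after quantile normalization over 6 arrays, 307 after median centring, 282 after quantile normalization over 10 arrays, 313 with a pseudocount of 1 and 346 with 64. Without the dimmest 25% of probe sets 287 were higher, of 476. With the 4 compared arrays alone there were 399 higher and 303 lower (702), with all 10 arrays 828 and 746 (1574, 414 at least 2-fold), with group weights 935 and 647 (1582, 428 at least 2-fold) and without the trend 315 higher, of 525. Leaving out an array gave 0 to 396 higher, 0 to 377 lower, 0 to 747 in all and 0 to 646 at least 2-fold. The labels number the replicates and state no pairing across groups, and the main fit used none. Deviations of same-numbered arrays correlated at -0.066 between boron and calcium, -0.216 between boron and control and 0.073 between calcium and control. With 2 arrays per group these values cannot decide whether the numbers pair the samples. A fit with the replicate number as a block gave 5 higher and 38 lower (43, all 43 at least 2-fold), 40 of them among the 343.

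The 10 plastid-encoded calls became 6 after quantile normalization over 10 arrays, 20 without the dimmest 25%, 21 with 4 arrays, 32 with all 10, 0 with the replicate block, 40 with group weights, 23 without the trend, and 0 to 21 leaving out an array; the median over the list stayed at 0.61 to 0.77, with 67 to 69 of 69 above 0. Of 59 called genes that are named, the replicate block kept 9 and leaving out an array 0 to 59, and all 59 kept their direction in each alternative that gave a value. Leaving out an array could not turn the direction of these 59, because their boron arrays both lay beyond both calcium arrays. Of the genes named by the rule and not called, 5 changed sign when an array was left out. They were ETFBETA (-0.37 to 0.02), XTH19 (-0.91 to 0.44), MCCB (-0.01 to 0.17), ALDH6B2 (-0.04 to 0.32) and WRKY53 (-0.15 to 0.15). The plastid gene rpoB, named beyond the rule, changed sign as well (-0.06 to 0.27). WRKY53, level as deposited, was also at -0.05 after either quantile normalization and with all 10 arrays, and at -0.04 after median centring. The cause of these changes was not tested. A mean signal under 50 was found in boron deficiency for 28 of the 165 lower probe sets and in calcium deficiency for 8 of the 178 higher ones, and their folds depend on the pseudocount.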
